A study of Mus musculus with 10 samples.

Results

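The 10 genes described here make, bind or break down cyclic GMP (cGMP) signals: the kinases Prkg1 and Prkg2, the natriuretic peptide receptors Npr1, Npr2 and Npr3, the receptor guanylyl cyclase Gucy2c, the endothelial nitric oxide synthase Nos3 and the phosphodiesterases Pde2a, Pde5a and Pde9a. They were taken by symbol from the deposited count table, and each of the 10 symbols matched 1 of 39017 genes. The set was chosen by a readout of the same libraries, the lower Prkg2 counts in one genotype than in the other, and was then filled with other genes of the pathway, so differences between the genotypes are described and not used as support. Expression was measured by RNA sequencing in 10 mouse lung tumors. Of these, 5 came from control mice (KP 1 to 5) and 5 from mice labelled KO (KPG1 1 to 5). In the KO mice both alleles of Slc2a1 are floxed, so that Cre recombinase can delete the gene. Slc2a1 encodes Glut1, a carrier of glucose. All mice were males of the strain C57BL/6 that carried alleles which start tumors once Cre recombinase is delivered, and tumors were taken 18 weeks and 6 days after an adenovirus with Cre under the SPC promoter was given into the airways, so that tumors start from cells that make surfactant protein C. KPG1 mice are labelled homozygous fl/fl, and the genotype label of the controls is heterozygous fl/wt although other labels give wild type. Per the study's methods, controls were either wild type or heterozygous for Slc2a1. KP is used here for these controls. RNA came from cells left after beads had removed leukocytes, which carry CD45. Nothing in the labels states whether each library is a different animal, so p-values measure the spread between these libraries.

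Cyclic GMP is a second messenger made by guanylyl cyclases. Soluble cyclases answer nitric oxide, which Nos3 makes in endothelium, and receptor cyclases answer peptides: Npr1 binds the heart hormones ANP and BNP, Npr2 binds the C-type peptide made in vessels and growth plates, and Gucy2c binds guanylin and uroguanylin in the gut. Npr3 has no cyclase domain and clears peptides. The kinases are the main targets: Prkg1 relaxes smooth muscle, while Prkg2 is a membrane-bound kinase known from intestine, bone and brain. Phosphodiesterases end the signal, and Pde5a is the target of drugs used against high pressure in the lung circulation.

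The kinases are separate genes with different coding starts. Prkg1 (ENSMUSG00000052920, chromosome 19, 30564489 to 31765033, minus strand, mm10) has a pair of start exons, which give the isoforms known as alpha and beta, and Prkg2 (ENSMUSG00000029334, chromosome 5, 98929773 to 99037351, minus strand) has a single one in the annotated full-length transcripts. The first 60 coding bases from GENCODE M21 are shown because the kinases differ in this stretch. It codes for only the start of the N-terminal part of each protein, which governs dimer formation and, for Prkg2, attachment to membranes. Capitals mark the start codon, and the bases are at chr19:31764763-31764822, chr19:31664222-31664281 and chr5:99024795-99024854 in that order.
Prkg1-201: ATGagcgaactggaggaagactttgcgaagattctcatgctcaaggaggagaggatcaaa
Prkg1-202: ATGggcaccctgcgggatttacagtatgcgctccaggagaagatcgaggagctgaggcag
Prkg2-201: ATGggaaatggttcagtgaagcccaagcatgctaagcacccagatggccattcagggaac
The coding sequences were 2013, 2058 and 2199 bases long. Over aligned bases, Prkg1-201 and Prkg1-202 were identical at 95.3% and Prkg1-201 and Prkg2-201 at 65.0%. The counts are per gene and do not separate the isoforms.

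The libraries held 32427029 to 49534284 counts. Values are CPM, the usual unit of reads relative to the size of their library, with library sizes scaled by TMM factors. Slc2a1 itself was lower in each KPG1 library (40.8 to 66.8 CPM) than in any KP library (71.7 to 127 CPM), with a log2 difference of -1.01 (SE 0.20) and an adjusted p of 0.0675 in limma. Epithelial and alveolar type 2 markers were high in every library (Epcam 334 to 627 CPM, Nkx2-1 162 to 358 CPM), and Ptprc, the gene of CD45, was at 5.21 to 10.97 CPM. Pecam1, an endothelial marker, was at 68.9 to 306 CPM and the smooth muscle myosin Myh11 at 1.25 to 4.90 CPM, so RNA of endothelium and smooth muscle was present beside that of epithelium. KP 1 and KP 5 were the extremes of the first principal component, KP 1 with the lowest summed alveolar type 2 markers (19715 CPM) and KP 5 with the lowest summed endothelial markers (501 CPM). In such bulk RNA, fewer cells of a type and less RNA per cell cannot be told apart.

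Prkg2 was the only member that passed the threshold between the groups. It was at 10.7, 4.37, 17.8, 12.7 and 8.50 CPM in KP 1 to 5 and at 1.03, 1.58, 1.77, 2.71 and 1.75 CPM in KPG1 1 to 5. The groups did not overlap, and the lowest KP library, KP 2, lay above the highest KPG1 library, KPG1 4. The means were 10.8 ± 4.99 CPM in KP and 1.77 ± 0.609 CPM in KPG1 (SD, n = 5), so the KPG1 mean was 16.3% of the KP mean. The log2 fold change was -2.57 (SE 0.41, 95% interval -3.47 to -1.66), 5.92-fold lower, with a limma adjusted p of 0.0382 over 16216 genes. Because this difference chose the gene, it is a description and no independent test. The reads behind it numbered 139 to 660 in KP and 47 to 95 in KPG1. Gm3470, which lies inside Prkg2 on the same strand, had 0 to 3 counts. The adjusted p stayed under 0.05 in 7 of 19 alternatives, while the log2 fold change lay between -2.82 and -2.30 in all 19. Those that kept the call included edgeR, DESeq2 and the fit without KP 5, under which 0.247%, 3.46% and 1.78% of genes were called. Leaving out any 1 of the 8 libraries other than KP 2 and KP 5 ended the call (limma adjusted p 0.0665 to 0.147).

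Prkg1 had the lowest mean level per length of the 10 genes. Its levels were 1.01, 0.723, 0.782, 0.755 and 0.620 CPM in KP 1 to 5 and 1.86, 0.801, 1.18, 0.972 and 0.950 CPM in KPG1 1 to 5. The groups overlapped, with KPG1 1 highest. The means were 0.779 ± 0.145 CPM in KP and 1.15 ± 0.417 CPM in KPG1 (SD, n = 5), at a log2 fold change of 0.52 with an SE of 0.29 (limma adjusted p 0.516). Per kilobase of exon, Prkg2 stood above Prkg1 in all 10 libraries, and the ratio of the kinases was 21.3, 12.2, 46.0, 34.1 and 27.7 in KP 1 to 5 and 1.12, 3.98, 3.03, 5.65 and 3.72 in KPG1 1 to 5. In KPG1 1, the library with the most Prkg1 and the least Prkg2, the kinases were thus nearly level per kilobase. The exons used measured 10.9 kb for Prkg1 and 5.37 kb for Prkg2, and another set of exons could change the ratio. By CPM alone, Prkg1 stood above Prkg2 in KPG1 1 and below it in every other library.

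Across the 10 members, 1 passed the threshold in the lower direction and 9 did not, beside 28 of 16216 genes in either direction (0.173%), 18 in the lower direction (0.111%) and 10 in the higher direction (0.0617%). Groups that did not overlap were found for Prkg2 alone among the 10 members, and for 2.81% of all genes tested (1.76% lower and 1.05% higher in KPG1). Of the 10 log2 fold changes 6 were positive, and their median was 0.25 beside 0.02 over all genes. Since this contrast chose Prkg2, nothing is read from these shares. No marker of the cell types examined passed the threshold between the groups, and 52.7% of all genes tested had positive log2 fold changes. All 15 endothelial markers had positive log2 fold changes (median 0.32, summed level 501 to 1568 CPM in KP and 727 to 2165 CPM in KPG1), as had 12 of 12 alveolar type 2 markers (median 0.45, 19715 to 64822 CPM and 49933 to 89936 CPM) and 10 of 12 mural cell markers (85.8 to 309 CPM and 127 to 216 CPM). Acta2 took 10.7% to 56.3% of the mural sum, and the other mural markers held 76.6 to 135 CPM in KP and 101 to 172 CPM in KPG1. Of 11 tested fibroblast markers 8 were positive, with 168 to 376 CPM in KP and 239 to 516 CPM in KPG1 summed over the list other than Fn1, which alone took 60.9% to 89.6% of the full sum (805 to 2983 CPM in KP and 917 to 1756 CPM in KPG1). Of 11 tested immune markers 3 were positive, with 63.5 to 112 CPM in KP and 42.2 to 80.6 CPM in KPG1 other than Lyz2, which alveolar type 2 cells also express and which took 84.0% to 99.0% of the full sum (493 to 3650 CPM in KP and 2069 to 6234 CPM in KPG1). Of 16 genes of the gastrointestinal lineage 11 were tested and 1 was positive (median -0.72, 906 to 3086 CPM and 896 to 1755 CPM). Gkn2 took 18.1% to 65.2% of this sum, and the list other than Gkn2 held 501 to 2529 CPM in KP and 441 to 612 CPM in KPG1. The intestinal regulator Cdx2 was at 0 to 0.531 CPM, Cdx1 at or near 0, and Hnf4a, a regulator of gut and liver genes, at 72.0 to 297 CPM. Gkn2 was at 378 to 1144 CPM, Ctse at 130 to 974 CPM and Vil1 at 27.5 to 170 CPM. Lgals4 was at 10.9 to 198 CPM and Tff1 at 10.8 to 815 CPM. Among all markers examined, groups did not overlap for Cdh17, S100a8, S100a9 and Itgam, lower in KPG1, and for Abca3, higher in KPG1. Cdh17 was at 3.05 to 50.6 CPM in KP and 0.109 to 2.57 CPM in KPG1. The part of these markers in the difference of Prkg2 was not tested.

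**Figure D1:**
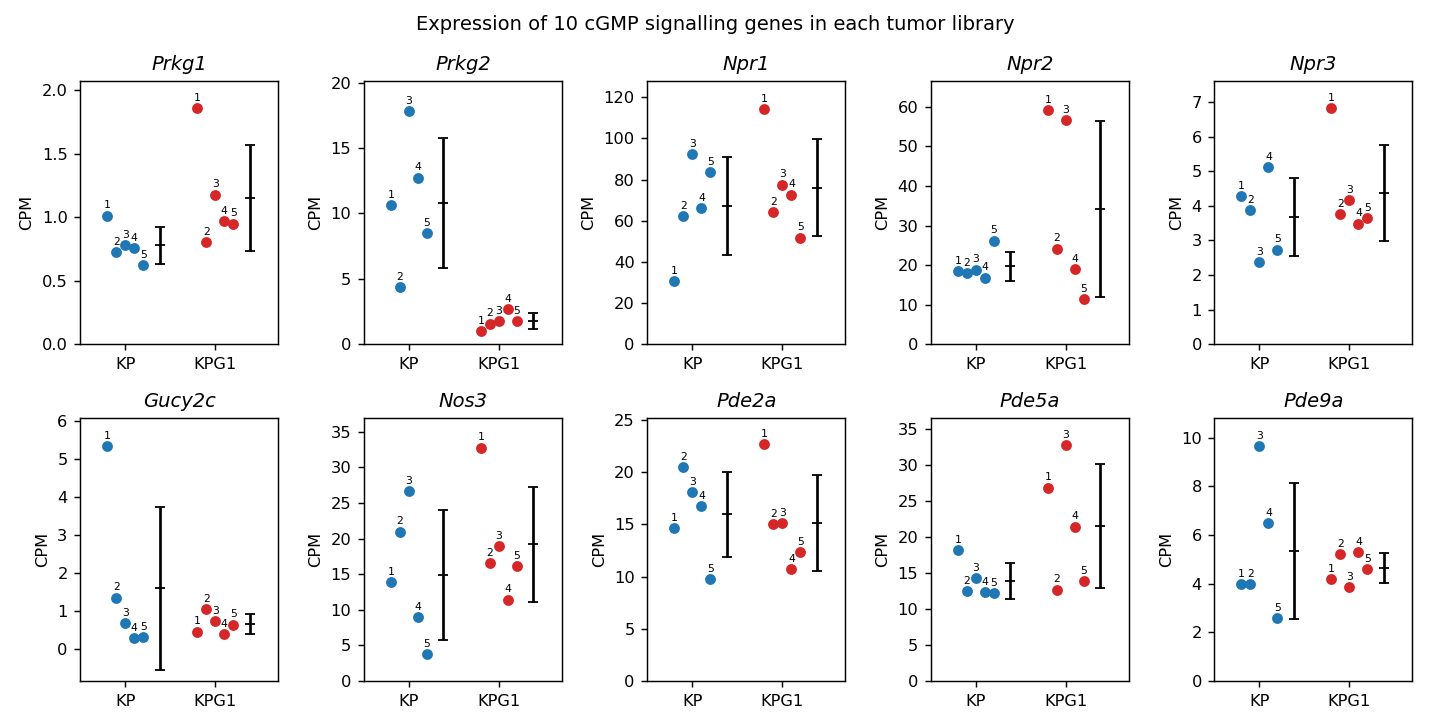
CPM (vertical axes, each gene on its own scale) of the 10 genes in the 5 KP (blue) and 5 KPG1 (red) libraries. Each point is a library with its replicate number, and the bar beside each group is the mean ± SD. Prkg2 is the gene whose groups do not overlap: KP lies between 4.37 and 17.8 CPM and KPG1 between 1.03 and 2.71 CPM.

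The natriuretic peptide receptors did not pass the threshold. Npr1 (ENSMUSG00000027931, chromosome 3, 90450591 to 90465866), the cyclase receptor of ANP and BNP, was at 30.6, 62.3, 92.4, 66.3 and 83.7 CPM in KP 1 to 5 and at 114, 64.2, 77.6, 72.7 and 51.8 CPM in KPG1 1 to 5. KP 1 was lowest and KPG1 1 highest, and the rest lay between. The means of 67.0 ± 23.8 and 76.1 ± 23.5 CPM (SD, n = 5) gave a log2 fold change of 0.23 with an SE of 0.30 (limma adjusted p 0.810). Npr2 (ENSMUSG00000028469, chromosome 4, 43631935 to 43651244), the receptor of the C-type peptide, was at 18.4, 17.9, 18.9, 16.9 and 26.2 CPM in KP 1 to 5 and at 59.2, 24.1, 56.6, 19.0 and 11.4 CPM in KPG1 1 to 5. KPG1 1 and KPG1 3 stood above every KP library while KPG1 5 was below every one, so the KPG1 group held both extremes. Its log2 fold change was 0.55 with an SE of 0.43 (limma adjusted p 0.648) between means of 19.7 ± 3.74 and 34.1 ± 22.2 CPM (SD, n = 5), and it ranged from 0.27 without KPG1 1 to 0.88 without KPG1 5 over 19 alternatives.

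Npr3 (ENSMUSG00000022206, chromosome 15, 11839896 to 11907287), the clearance receptor, was at 4.27, 3.87, 2.37, 5.12 and 2.73 CPM in KP 1 to 5 and at 6.82, 3.75, 4.17, 3.49 and 3.65 CPM in KPG1 1 to 5. Apart from KPG1 1, the KPG1 values lay within the KP range. The log2 fold change was 0.27 with an SE of 0.28 (limma adjusted p 0.744), from 0.076 without KPG1 1 to 0.41 without KP 4 over the alternatives. Among the peptides that these receptors bind, Nppa had at most 1 count in a library and Nppc at most 22, and neither was tested. Nppb, the gene of BNP, had at most 97 counts and a log2 fold change of -2.05 with an SE of 0.79 (limma adjusted p 0.357).

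Gucy2c (ENSMUSG00000042638, chromosome 6, 136697284 to 136781765), the guanylin receptor, was carried by 1 library. It was at 5.33, 1.35, 0.674, 0.283 and 0.322 CPM in KP 1 to 5 and at 0.459, 1.06, 0.725, 0.400 and 0.642 CPM in KPG1 1 to 5. KP 1 was above all other libraries and the KPG1 values lay within the KP range. The log2 fold change of -0.44 with an SE of 0.73 (limma adjusted p 0.857) became 0.24 without KP 1 and was -1.27 with edgeR and -1.29 with DESeq2, none of which passed. Its ligand guanylin, Guca2a, was at 36.3, 10.8, 37.8, 6.47 and 7.33 CPM in KP 1 to 5 and at 6.14, 14.4, 12.4, 8.60 and 27.9 CPM in KPG1 1 to 5. Guanylin was thus highest in KP 3, KP 1 and KPG1 5, although Gucy2c was high in KP 1 alone, and uroguanylin, Guca2b, had at most 8 counts in any library.

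Nos3 (ENSMUSG00000028978, chromosome 5, 24364810 to 24384474), which makes nitric oxide in endothelium, was at 13.9, 20.96, 26.7, 8.97 and 3.77 CPM in KP 1 to 5 and at 32.8, 16.6, 19.0, 11.4 and 16.1 CPM in KPG1 1 to 5. KP 5 was lowest and KPG1 1 highest, and the groups overlapped. The means were 14.9 ± 9.15 and 19.2 ± 8.08 CPM (SD, n = 5), with a log2 fold change of 0.64 with an SE of 0.47 (limma adjusted p 0.631) that ranged from 0.033 with quality weights to 0.92 without KP 3 over 19 alternatives, and was 0.18 without KP 5. Atg9b overlaps exons of Nos3 on the opposite strand and had 178 to 1437 counts. The library kit keeps strand, but the strand setting of the counting is not given in the sources used here, so reads of this overlap may not be told apart.

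The phosphodiesterases that degrade cGMP did not pass the threshold either. Pde5a (ENSMUSG00000053965, chromosome 3, 122728947 to 122859374), which is specific for cGMP, was at 18.1, 12.5, 14.3, 12.4 and 12.2 CPM in KP 1 to 5 and at 26.9, 12.7, 32.8, 21.5 and 13.8 CPM in KPG1 1 to 5. All 5 KPG1 libraries were above the KP median, and KPG1 1, KPG1 3 and KPG1 4 were above every KP library. The means were 13.9 ± 2.52 and 21.5 ± 8.56 CPM (SD, n = 5), at a log2 fold change of 0.57 with an SE of 0.27 (limma adjusted p 0.459). Pde2a (ENSMUSG00000030653, chromosome 7, 101410886 to 101512819), which cGMP stimulates and which also degrades cAMP, was at 14.6, 20.5, 18.1, 16.8 and 9.76 CPM in KP 1 to 5 and at 22.7, 15.02, 15.1, 10.7 and 12.4 CPM in KPG1 1 to 5. The ranges lay over each other, and the log2 fold change was -0.04 with an SE of 0.24 (limma adjusted p 0.963). Pde9a (ENSMUSG00000041119, chromosome 17, 31386210 to 31476310), an enzyme with high affinity for cGMP, was at 3.98, 3.99, 9.66, 6.49 and 2.60 CPM in KP 1 to 5 and at 4.20, 5.22, 3.85, 5.29 and 4.60 CPM in KPG1 1 to 5. All KPG1 values lay within the KP range. The log2 fold change was -0.07 with an SE of 0.32 (limma adjusted p 0.956). The signs for Npr1, Pde2a and Pde9a each turned when single libraries were left out.

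**Figure D2:**
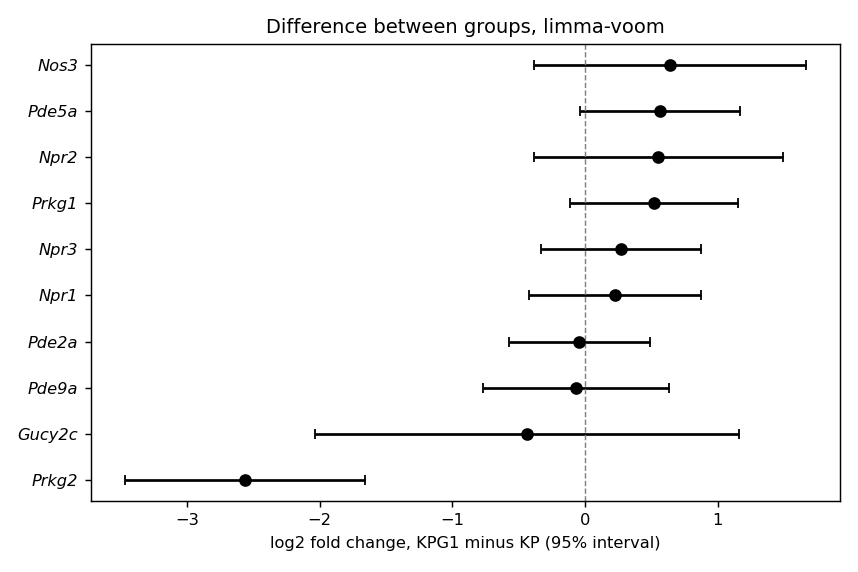
Log2 fold change of each gene between KPG1 and KP (horizontal axis) with its 95% interval from limma-voom, 5 libraries a group, and the dashed line at 0. The interval of Prkg2, from -3.47 to -1.66, lies below 0 and those of the other 9 genes span it.

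The members also differed in how far libraries of 1 group lay apart, a measure that does not use the contrast. The pooled within-group SD of log2 CPM was 1.22 for Gucy2c, larger than that of 96.1% of the genes tested, 0.88 for Nos3 (89.9%), 0.75 for Npr2 (85.2%) and 0.63 for Prkg2 (78.9%). It was 0.53 for Npr1 and for Pde9a, 0.45 for Pde5a, 0.42 for Npr3, 0.41 for Pde2a and 0.36 for Prkg1, beside a median of 0.35 over all genes. All 10 members thus lay above this median, Prkg1 only just (51.4% of genes had a smaller SD). The genes were not matched for level, and the part of counting error in members with few reads was not tested.

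Levels between genes were compared per length, as CPM per kilobase of the exons annotated in GENCODE M21. The means over the 10 libraries were 14.96 for Npr1, 5.76 for Npr2, 4.12 for Nos3, 3.76 for Pde2a, 1.80 for Pde5a, 1.41 for Pde9a, 1.17 for Prkg2, 0.429 for Npr3, 0.284 for Gucy2c and 0.0889 for Prkg1 CPM per kilobase. By the mean of the log2 level, on which the test was run, Pde2a stood before Nos3, and the rest of the order was the same. Npr1 exceeded Npr2 in 10 of 10 libraries by 1.48 on the log2 scale (exact sign-flip permutation test, two-sided, adjusted p 0.0176 over 9 neighbouring pairs). Nos3 exceeded Pde5a in 9 of 10 libraries by 1.04 (adjusted p 0.0264 by the same exact test). The first of these calls held with each library left out (adjusted p 0.0352 at most, exact permutation), and the second missed the threshold without KP 2, KP 3, KP 4, KPG1 2, KPG1 3 or KPG1 5 (adjusted p 0.0527 each, exact permutation). Npr3 exceeded Gucy2c when KP 1 was left out, and Gucy2c exceeded Prkg1 when KPG1 1 was left out (adjusted p 0.0176 each, exact permutation, 9 of 9 libraries). With all libraries, the other 7 neighbouring pairs did not pass the threshold, with exact permutation adjusted p of 0.0527 to 0.943. The receptor cyclase of ANP and BNP was therefore the member with the highest level per length and Prkg1 that with the lowest mean, although Prkg1 and its neighbour Gucy2c could not be ordered (adjusted p 0.0527, exact permutation). Prkg2 held rank 5 among KP libraries, at a mean of 2.01 CPM per kilobase, and rank 8 among KPG1 libraries, at 0.329. Its neighbours had means of 1.51 (Pde9a) and 0.391 (Npr3) in KP and of 1.31 and 0.466 in KPG1. The tests of Prkg2 against these neighbours pooled both genotypes, so the spread there holds its difference in rank between genotypes. Lengths hold every exon annotated in GENCODE M21, which has 37693 of the 39017 genes counted, and another set of exons could change the levels per length. The length of Pde2a is uncertain in particular, because the annotation has an overlapping gene model of the same name. Arap1 (2684 to 3912 counts) also shares exonic bases with Pde2a on the same strand, which may affect the counts of Pde2a too.

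**Figure D3:**
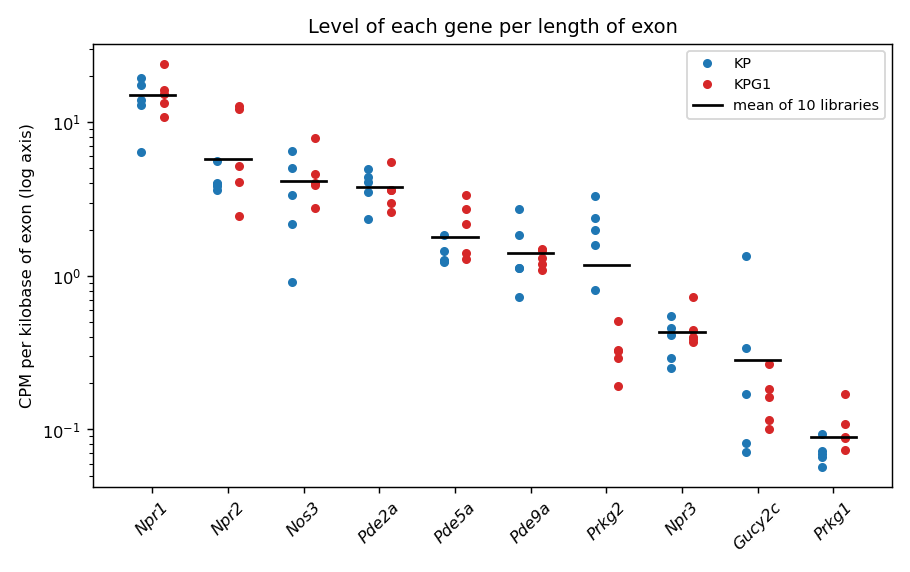
CPM per kilobase of exon on a log axis (vertical) for the 10 genes, ordered by the mean over all 10 libraries (black line), with KP libraries in blue and KPG1 libraries in red. Npr1 is highest at a mean of 14.96 and Prkg1 lowest at 0.0889, and Prkg2 is the gene whose blue and red points are apart.

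The spread within groups was then set against scores of cell type markers, each score being the mean z-score of a marker list, with the group means removed from both sides. None of the members belongs to these lists. Of 30 relations of the 10 members with the endothelial, mural and alveolar type 2 scores, 3 passed the threshold. Nos3 followed the endothelial score (r = 0.944, exact permutation within groups, p 3.47e-04, adjusted p 0.0104, and Spearman's rho 0.879, adjusted p 0.0635 by the same exact test, 10 libraries). Without KP 5 and KPG1 1, the libraries farthest from the median score, r was 0.931 (exact permutation p 0.00868). Pde2a followed it as well (r = 0.930, exact permutation p 0.00153, adjusted p 0.0229, and rho 0.806, adjusted p 0.111), with r = 0.740 (exact permutation p 0.0382) without KP 5 and KPG1 1. Thus KP 5, which had the least of the endothelial markers, also had the least Nos3 and Pde2a, and KPG1 1 was highest in all 3.

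Prkg1 followed the mural score, built from smooth muscle and pericyte genes (r = 0.766, exact permutation p 0.00257, adjusted p 0.0257, and rho 0.855, adjusted p 0.0479). Without KP 4 and KP 5, r was 0.810 (exact permutation p 0.0194). Pde5a, also known from smooth muscle, had r = 0.607 with that score (exact permutation adjusted p 0.280). Nos3 had r = 0.719 with the mural score and Prkg1 r = 0.575 with the endothelial score (exact permutation adjusted p 0.280 and 0.432). None of the 3 relations that passed with all libraries did so after adjustment when KP 1, KP 4, KP 5 or KPG1 4 was left out (lowest adjusted p 0.0521 in these settings, exact permutation, 9 libraries), and the relation of Pde2a was also lost without KPG1 1 (adjusted p 0.0573) and that of Prkg1 without KPG1 2 (adjusted p 0.153). The coefficient r stayed between 0.927 and 0.964 for Nos3, between 0.889 and 0.960 for Pde2a and between 0.706 and 0.860 for Prkg1 over all settings. In the same settings, Pde5a passed with the mural score without KPG1 5 (r = 0.766, exact permutation adjusted p 0.0312), and Prkg1 passed with the alveolar type 2 score without KPG1 1 (r = -0.797, exact permutation adjusted p 0.0451). Prkg2 passed with none of these 3 scores: r was -0.309 with the endothelial, 0.048 with the mural and -0.382 with the alveolar type 2 score (exact permutation adjusted p 0.739, 0.948 and 0.739). Relations with the gastrointestinal, fibroblast and immune markers were not tested for any member. The part of endothelial and mural cells in the group values of these genes was not tested.

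**Figure D4:**
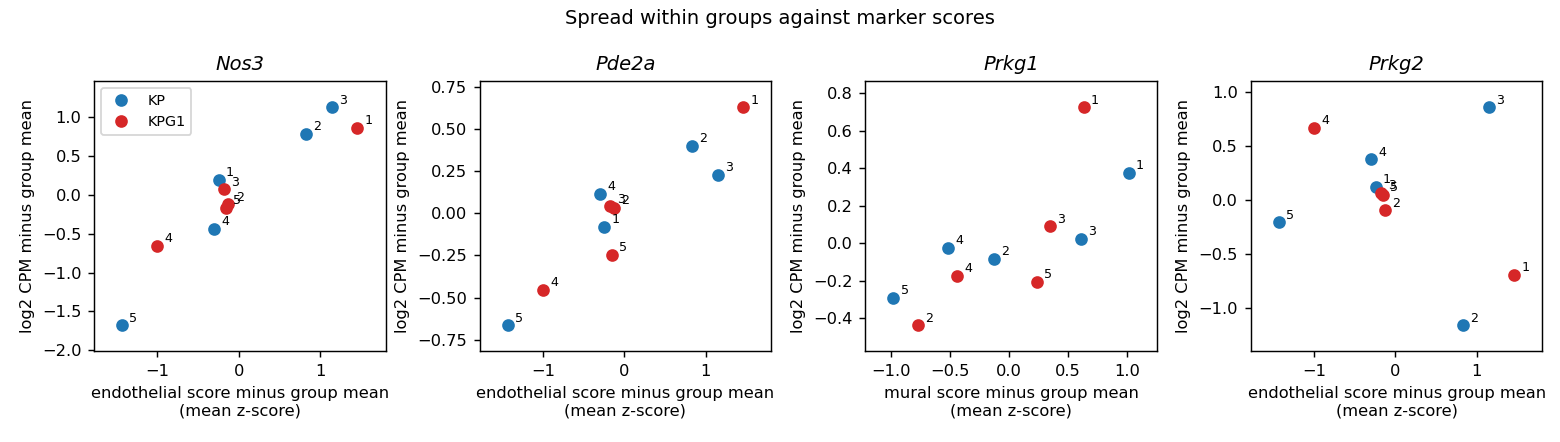
Log2 CPM minus the group mean (vertical axes) against a marker score minus its group mean (horizontal axes, mean z-score) for Nos3, Pde2a, Prkg1 and Prkg2, with KP in blue, KPG1 in red and replicate numbers at the points. Nos3 (r = 0.944) and Pde2a (r = 0.930) line up with the endothelial score and Prkg1 (r = 0.766) with the mural score, whereas Prkg2 (r = -0.309) does not line up with the endothelial score.

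Between members, the spread within groups of Pde2a and Nos3 was correlated (r = 0.870 over 10 libraries, 0.767 to 0.916 with each library left out), as was that of Prkg1 and Pde5a (r = 0.743, 0.650 to 0.867). Npr1 and Gucy2c had r = -0.749, which rested on KP 1, the library with the least Npr1 and the most Gucy2c, and was -0.318 without it. Both genes of a pair were read in the same libraries, which differ in depth and cell makeup, so these values are descriptions. By the same measure, the expressed genes most like Nos3 were Grrp1, Tpgs2, Ackr2, Dnaja4 and Tie1 (r = 0.978 to 0.987), of which the endothelial receptor Tie1 is also in the marker list. The genes most like Pde2a were Unc45b, Tll1, Kdr, Cttnbp2 and Nr5a2 (r = 0.964 to 0.986), of which Kdr, a receptor of vascular endothelial growth factor, is in the list too. For Prkg2 they were Mrm1, Abhd14a, Clip2, Gemin6 and Strap (r = 0.873 to 0.906), and for Prkg1 Ctif, Rhbg, Colec12, Adamts12 and Igsf3 (r = 0.904 to 0.952). The gene most like each of the rest was Pip4k2c for Npr1 (r = 0.962), Fhdc1 for Npr2 (r = 0.909), Tiparp for Npr3 (r = 0.897), Ap3b1 for Gucy2c (r = 0.966), Hexdc for Pde5a (r = 0.951) and Nhp2 for Pde9a (r = 0.987). These most alike genes hold the highest r among all expressed genes over 10 libraries, and no chance level was computed for them.

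The other genes of cyclic nucleotide signaling, 76 in all, gave no call. Of these, 54 were tested and 0 passed the threshold in limma, 6 had an unadjusted p under 0.05 (11.6% of all genes did), and 34 log2 fold changes were positive and 20 negative (median 0.15 beside 0.02 over all genes). The remaining 22 had at most 57 counts in any library. The 3 tested subunits of soluble guanylyl cyclase, the receptor of nitric oxide, all had positive values. Gucy1a3, the main alpha subunit, was at 6.51, 8.89, 7.61, 5.76 and 8.86 CPM in KP 1 to 5 and at 18.7, 8.51, 16.3, 12.3 and 9.35 CPM in KPG1 1 to 5. KPG1 2 lay within the KP range and the other KPG1 libraries above it, at a log2 fold change of 0.77 with an SE of 0.26 (limma adjusted p 0.283). Its partner Gucy1b3 had 0.58 (SE 0.22, limma adjusted p 0.350). DESeq2 and edgeR also called 0 genes of this list.

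The other genes with the smallest p were, in limma, Pde7b, a cAMP phosphodiesterase, at 0.88 (SE 0.31, adjusted p 0.310), the calcium channel Trpc6, a substrate of Prkg1, at 0.72 (SE 0.27, adjusted p 0.348), the protease Furin, which cuts peptide precursors, at -0.35 (SE 0.13, adjusted p 0.357), neprilysin, Mme, which degrades natriuretic peptides, at 1.22 (SE 0.58, adjusted p 0.447), and the scaffold Slc9a3r2 at 0.41 (SE 0.20, adjusted p 0.464). By role, 6 of 7 tested cAMP phosphodiesterases, 5 of 7 other phosphodiesterases that act on cGMP and 4 of 5 cyclic nucleotide-gated channels had positive log2 fold changes. The same held for 7 of 11 kinase substrates or anchors, 4 of 6 subunits of the cAMP-dependent kinase, 2 of 7 other nitric oxide synthases and regulators and 0 of 2 peptide ligands. Differences between roles were not tested, and 52.7% of all genes were positive. None of these lists held a gene whose groups did not overlap.

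**Figure D5:**
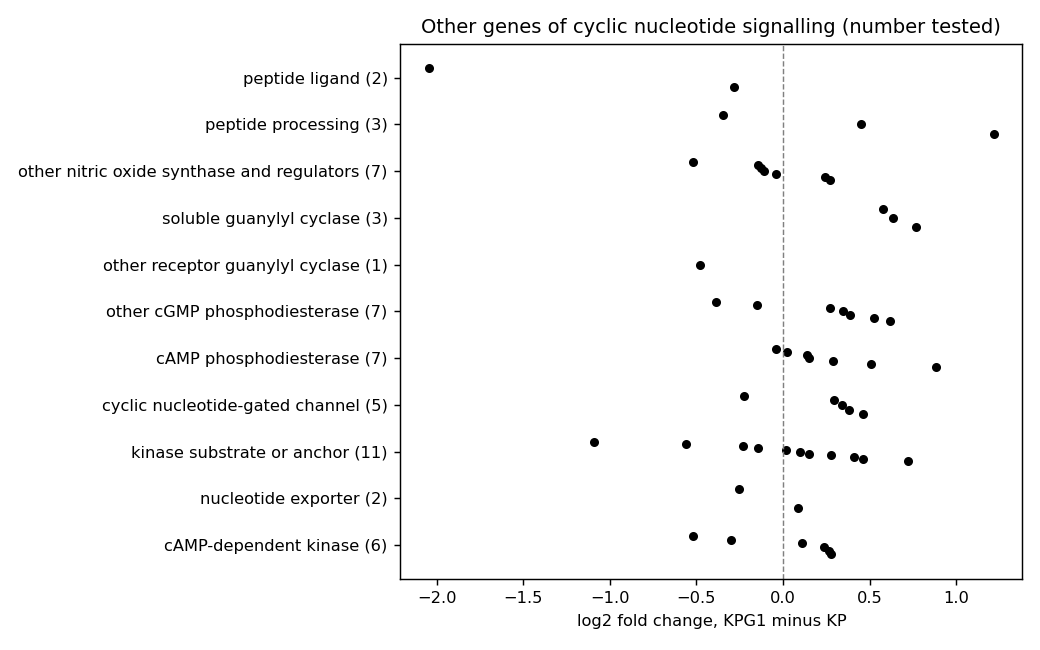
Log2 fold change between KPG1 and KP (horizontal axis) of the 54 tested genes of cyclic nucleotide signaling other than the 10 members, 1 point a gene, in rows by role with the number tested in parentheses. The 3 soluble guanylyl cyclase subunits lie to the right of 0 at 0.58 to 0.77, and no point passed the threshold.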

How the data were processed

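Per the labels and the study's methods, the authors made stranded mRNA libraries, converted reads with bcl2fastq 2.17, trimmed them with cutadapt, aligned them to mm10 with HISAT2 and counted them with featureCounts 1.4.4. The labels and the methods name different cutadapt versions, and the strand setting is not given in the sources used here. The deposited counts are whole reads per gene, not normalized. A deposited log2 table, which the authors made with TMM and voom, was only compared with the counts. Reads carried no molecular identifiers, so precision is limited by counting error and by library preparation as well as by the spread between tumors. Depth was 32427029 to 49534284 counts per library.

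Genes were filtered with filterByExpr (edgeR 4.0.16), scaled by TMM and fitted with voom and limma 3.58.1 in R 4.3.3 with genotype as the only term. The study also used TMM, voom and limma but filtered on transcript levels per length, and its model terms are not given in the sources used here. P-values were adjusted by Benjamini-Hochberg over 16216 genes, with a threshold of 0.05. limma is the main test because the study used it, and edgeR's quasi-likelihood test and DESeq2 1.42.0 were alternatives. The fits were tested on simulated counts. Levels per kilobase used exons of GENCODE M21 and log2 with a pseudocount of 0.1, compared over 1024 sign assignments. Within-group relations used log2 CPM with a prior count of 2 and all 14400 permutations within groups, adjusted by Benjamini-Hochberg over 30 relations. The ranks for Spearman's rho came from the Python package scipy 1.17.1. The likeness rule took for each member the 5 genes with the highest r among genes whose log2 CPM averaged 1 or more. Of the wider list the 8 genes with the smallest p were named, and Guca2a, Guca2b, Nppa and Nppc were named as ligands of members after their values were seen. The wider list was written from general knowledge, and Pde4d, which has more than 1 row, was left out.

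The members and lists were chosen with earlier results of these data known. Other settings tried were no filter, a mean CPM of at least 1, other scalings, quality weights, a replicate block and leaving out each library. The engineered alleles that start the tumors are not reported here.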

Additional observations from a re-analysis of the deposited data

Results flagged for a closer look

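In 38 groups of 5 values searched (each member, Slc2a1 and the named genes in each genotype), 2 held a library far from the others, and chance flags about 5% of groups. Npr2 in KP 5 was at 4.71 log2 CPM, while the other 4 KP libraries lay between 4.08 and 4.24, so that the gap was 0.743 of the group's range. Npr3 in KPG1 1 was at 2.78 log2 CPM, while the others lay between 1.82 and 2.08, a gap of 0.734 of the range.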

How the results depend on the processing

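The log2 fold change of Prkg2 stayed between -2.82 and -2.30 under 19 alternatives. Its adjusted p remained under 0.05 with edgeR, DESeq2, quality weights, no filter, DESeq2 size factors, and without KP 2 or KP 5. It did not pass with a mean CPM of at least 1 (-2.59, limma adjusted p 0.0527), with total counts and no TMM (-2.54, adjusted p 0.0545), with the replicate number as a block (-2.59, adjusted p 0.105), or without KP 1 and KP 5 (-2.63, adjusted p 0.0652, chosen after seeing the data). The count of members past the threshold was then 0 in place of 1. Without single libraries the adjusted p was 0.0918 (KP 1), 0.0665 (KP 3), 0.1004 (KP 4), 0.0872 (KPG1 1), 0.114 (KPG1 2), 0.147 (KPG1 3), 0.0953 (KPG1 4) and 0.0905 (KPG1 5), all in limma, and the cause was not tested.

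Of all genes, 10 were higher and 18 lower in KPG1 in limma. The counts were 125 and 423 with DESeq2, 51 and 177 with quality weights, 29 lower with edgeR, 31 lower with no filter, 6 higher with a mean CPM of at least 1, 44 lower without KP 1 and KP 5, and 4 and 1 with the replicate block. Leaving out single libraries gave 3 to 71 higher and 1 to 223 lower, 0 to 1 members, 0 of the wider list, 1 to 3 of 9 neighbouring pairs by level and 0 to 4 of 30 relations with marker scores. Slc2a1 passed with DESeq2 (adjusted p 2.55e-04), quality weights (0.0171), without KP 5 (0.0220) and without KP 1 and KP 5 (0.0161). The groups share replicate numbers, but same-numbered libraries did not deviate together (correlations -0.16 to 0.08), so the block pairs nothing known.

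With single libraries left out, the log2 fold change was -0.032 to 0.36 for Npr1 (sign turned without KP 1), -0.83 to 0.24 for Gucy2c (without KP 1, and -1.27 with edgeR and -1.29 with DESeq2), -0.23 to 0.062 for Pde2a (without KP 2, KP 3, KPG1 4 or KPG1 5) and -0.32 to 0.17 for Pde9a (without KP 3, KP 4 or KPG1 3), and none of these passed in any setting. Pde2a and Nos3 exchanged places in the order by level with a pseudocount of 1 and without KP 4 or KP 5.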
